A study of Mus musculus with 33 samples.

Results

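Gene expression in the cerebellum of wild-type mice was set against that in their cerebral cortex, gene by gene. The 8 libraries used are the wild-type (WT) libraries of experiment 2, 4 of cerebellum and 4 of cortex, out of 33 in the whole series. They were taken by their labels. All came from male C57Bl/6J mice at 1 month of age, from frozen tissue whose RNA was extracted with Trizol, and were made from polyadenylated RNA with strand information kept. The 6 libraries of Mir7DKO mice from the same experiment (Mir7a1-/-; Mir7b-/-, which lack 2 of the genes for the microRNA miR-7), 3 of cerebellum and 3 of cortex, carry the same regional contrast in other animals and are given beside it. The labels call the samples biological replicates and do not say whether a cerebellum and a cortex with the same number came from 1 mouse.

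The cerebellum is a hindbrain structure that tunes movement. Its small granule cells, the most numerous neurons of the brain, send parallel fibres to the dendrites of Purkinje cells, whose inhibitory axons are the sole output of the cerebellar cortex, and Bergmann glia, specialised astrocytes, wrap the Purkinje dendrites. The cerebral cortex is a forebrain structure of layered excitatory projection neurons and of inhibitory interneurons that migrate in from the ventral forebrain. Transcription factors of the early neural tube that set up the hindbrain or the forebrain stay on in many of the adult neurons of each region.

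The cerebellum libraries held 9767559 to 12366027 counted reads and the cortex libraries 7101493 to 7758575, so depth went with region, and so did the deposited table; the part of either in a regional difference cannot be told apart from region. Levels are in CPM, read counts relative to the size of the library, after scaling of the 8 libraries together, given in the order of replicates 1 to 4, with the standard deviation (SD) over 4 libraries in a region, and a log2 change is that of cerebellum over cortex. Of 38393 features in the joined tables, 14001 had enough counts to be tested with edgeR's quasi-likelihood test, with Benjamini-Hochberg adjustment. A gene at or near 0 in a region entered that test through its counts in the other region. The labelled regions matched their defining genes: Purkinje and granule cell genes stood in the cerebellum libraries and projection neuron genes in the cortex libraries. The cortex libraries also held genes of striatum in every replicate and genes of choroid plexus in replicates 1, 3 and 4, and values that touch on these are given with the genes concerned. RNA of whole tissue was measured, so fewer cells of a type and less RNA per cell cannot be told apart.

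The question put by this comparison is which genes set the 2 regions apart. Against no change, 5218 genes (37.3%) were higher in cerebellum and 5237 (37.4%) lower, 10455 of 14001 in all (74.7%). The 4 libraries of 1 region lay wholly above the 4 of the other for 9559 genes (68.3%). With so many genes past that test, a call below means the 2-fold test, edgeR's test of a change larger than 2-fold, unless another is named. It called 2672 genes (19.1%), of which 963 (6.88%) were higher in cerebellum and 1709 (12.2%) were lower. The genes lower in cerebellum were the more numerous at every size: 461 called genes were more than 4-fold higher and 989 more than 4-fold lower, 128 and 343 passed 16-fold, and 53 and 129 passed 64-fold. The median log2 change of all 14001 genes was 0.008.

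The called genes took up a modest part of each library. Genes called higher in cerebellum held 12.7% of all cerebellum counts and 3.17% of all cortex counts, and genes called lower held 4.45% of cerebellum counts and 16.8% of cortex counts. A group of 14 tested genes had no read in any cortex library, and 40 had none in any cerebellum library. Over the 4 libraries of a region, 3 counts, the limit that a count of 0 allows, come to 0.0662 CPM in cerebellum and 0.104 CPM in cortex. These limits cover counting error only.

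**Figure D1:**
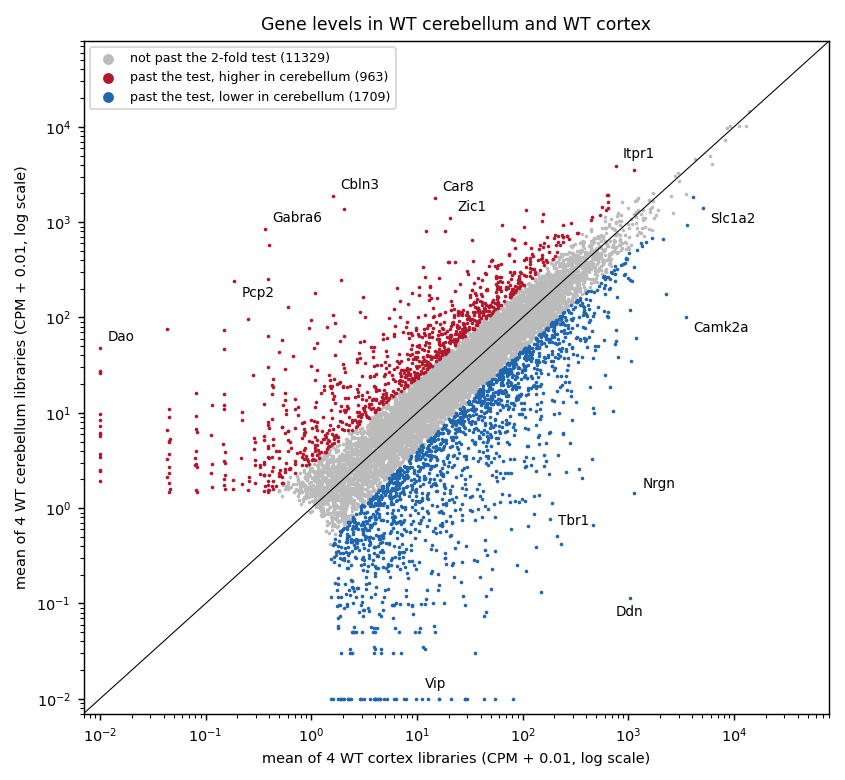
Mean level of each tested gene in the 4 WT cerebellum libraries (vertical axis) against the 4 WT cortex libraries (horizontal axis), in CPM plus 0.01 on log scales; red points passed the 2-fold test as higher in cerebellum and blue points as lower. The 963 red and 1709 blue points reach the edges of the plot, where Gabra6, Cbln3 and Pcp2 stand far above the line of equal levels and Ddn, Nrgn and Camk2a far below it.

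The largest change among genes seen in both regions that were higher in cerebellum belonged to Gabra6, the GABA-A receptor α6 subunit that marks granule cells (chr11:42306437-42321072, GRCm38). It had 802, 866, 824 and 860 CPM in the cerebellum libraries, against 0, 1.27, 0 and 0.139 CPM in the cortex libraries. All cerebellum values lay above all cortex values, and of the 10 cortex reads 9 fell in replicate 2. The log2 change was 11.18, SE 0.15 (adjusted p = 1.2e-24, edgeR 2-fold test). Pcp2, a regulator of G protein signalling that marks Purkinje cells, had 272, 221, 239 and 243 CPM in the cerebellum libraries, against 0, 0.563, 0 and 0.139 CPM in the cortex libraries, and a log2 change of 10.34, SE 0.17. Cbln3, a granule cell protein of the C1q family that assembles with cerebellin 1, had 1816, 1852, 1874 and 2002 CPM in the cerebellum libraries, against 0.267, 4.79, 0.722 and 0.556 CPM in the cortex libraries. Cortex replicate 2 again held the highest of the 4 cortex values, and its level was still far under that of any cerebellum library (log2 change 10.22, SE 0.16).

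The largest fall was that of Ddn, which encodes dendrin, a protein of the postsynaptic density (chr15:98803777-98809490). It had 0, 0.0946, 0.0796 and 0.246 CPM in the cerebellum libraries, against 972, 1042, 1107 and 1053 CPM in the cortex libraries. The cerebellum values came from 5 reads in all, and the groups did not overlap (log2 change -13.04, SE 0.12, adjusted p = 1.2e-27, edgeR 2-fold test). The smallest p of all genes that were lower belonged to Nrgn, neurogranin, a calmodulin-binding protein of forebrain dendrites (chr9:37544492-37552904), which had 2.10, 1.42, 1.11 and 1.06 CPM in the cerebellum libraries, against 1141, 1112, 1163 and 1100 CPM in the cortex libraries. Its log2 change was -9.65, SE 0.082 (adjusted p = 8.0e-28, edgeR 2-fold test). Among genes that were higher, the smallest p belonged to Car8, which binds the inositol trisphosphate receptor of Purkinje cells, at 1791 ± 63.2 CPM in cerebellum and 14.7 ± 1.96 CPM in cortex (log2 change 6.93, SE 0.065).

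The 300 bases around the annotated start of Gabra6, Pcp2 and Nrgn, 250 before and 50 after, are shown because these 3 genes mark the granule cell, the Purkinje cell and the cortical projection neuron and are described above with non-overlapping levels. They come from RefSeq, build GRCm38.p6, and lie at chr11:42321023-42321322, minus strand, at chr8:3625498-3625797, minus strand (the first of 4 starts that the table gives for this gene) and at chr9:37552696-37552995, minus strand. Capitals mark matches, on either strand, to the E-box CAGATG, a word bound by basic helix-loop-helix factors such as Neurod1, to AGGTCA, the nuclear receptor half-site of factors such as Rora, or to TGACGTCA, the cyclic AMP response element.
Gabra6: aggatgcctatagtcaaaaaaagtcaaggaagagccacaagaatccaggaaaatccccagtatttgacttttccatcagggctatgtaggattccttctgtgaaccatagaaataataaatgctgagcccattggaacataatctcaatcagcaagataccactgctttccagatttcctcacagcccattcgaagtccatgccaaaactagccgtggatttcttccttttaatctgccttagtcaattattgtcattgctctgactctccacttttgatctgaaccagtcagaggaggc
Pcp2: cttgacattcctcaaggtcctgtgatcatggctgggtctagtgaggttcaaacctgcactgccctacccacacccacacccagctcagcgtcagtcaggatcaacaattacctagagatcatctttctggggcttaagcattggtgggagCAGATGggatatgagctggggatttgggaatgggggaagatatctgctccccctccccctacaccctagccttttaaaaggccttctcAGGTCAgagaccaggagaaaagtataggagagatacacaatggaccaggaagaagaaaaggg
Nrgn: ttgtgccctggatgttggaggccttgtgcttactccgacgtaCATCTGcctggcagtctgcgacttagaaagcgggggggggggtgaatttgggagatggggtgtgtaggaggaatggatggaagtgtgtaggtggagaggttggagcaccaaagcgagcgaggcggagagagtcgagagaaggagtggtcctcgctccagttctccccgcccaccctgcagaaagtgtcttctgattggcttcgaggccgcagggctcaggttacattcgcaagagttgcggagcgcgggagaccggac
Pcp2 held 1 CAGATG and 1 AGGTCA, Nrgn held 1 CAGATG on the other strand, and Gabra6 held none of the 3 words in this window. The 3 words do not overlap each other in these sequences. Among genes called higher in cerebellum, 654 had a RefSeq promoter by symbol, and CAGATG was in 13.3% of these, AGGTCA in 13% and TGACGTCA in 1.99%. Among 1191 promoters of genes called lower the shares were 13.4%, 10.4% and 2.02%, and among 10309 promoters of all tested genes they were 11.4%, 11.5% and 3.24%. These shares use the first start of each symbol, and over all 27025 symbols of the table they were 17.2%, 16% and 1.88%. The median number of CpG steps in these windows was 17.0 in genes called higher and 17.0 in genes called lower, against 21 in all tested genes.

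The genes without a read in cortex were led by Dao, D-amino acid oxidase, an enzyme of cerebellar glia that breaks down D-serine. It had 45.7, 48.8, 47.1 and 48.6 CPM in the cerebellum libraries, against 0 in each cortex library, at least 456-fold higher if 3 counts over the 4 cortex libraries are taken as the limit. Sycp1, known as a protein of the synaptonemal complex of meiosis, had 26.5, 30.5, 25.6 and 26.9 CPM in cerebellum and no read in cortex, at least 261-fold higher. The noncoding transcript 1500016L03Rik was at least 248-fold higher. Crtam, an adhesion protein known from T cells, had 3414 reads in cerebellum against 1 in cortex, a ratio between 388 and 85469 by its 95% exact interval.

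Of the 40 genes without a read in cerebellum, those named by the rule on size included several transcription factors. Lhx2, a homeobox factor of cortical identity, had no read in cerebellum and was at least 833-fold lower, the noncoding transcripts Gm11549 and Dlx6os1 at least 646-fold and 446-fold. The interneuron peptide gene Vip was at least 430-fold lower, Fezf2, which specifies subcortically projecting neurons, at least 428-fold, and Mas1, the receptor of angiotensin 1-7, at least 316-fold. Nr2e1, also a transcription factor without a read in cerebellum, was at least 246-fold lower.

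Granule cell genes were higher in cerebellum with 1 exception. Of 18 listed and tested, 17 were called higher and 1 lower, with a median log2 change of 5.20. The sum of the list was 9735 ± 139 CPM in cerebellum and 1598 ± 55.3 CPM in cortex (SD, n = 4 each). Fat2, an atypical cadherin of parallel fibres, had 1363 ± 85.9 CPM in cerebellum and 2.02 ± 1.86 CPM in cortex (log2 change 9.39), and Cbln1, cerebellin 1, which granule cells release to bind Purkinje synapses, had 799 ± 34.7 CPM in cerebellum and 12.2 ± 2.30 CPM in cortex (log2 change 6.02). Zic1, a zinc finger factor of granule cells, had 1094 ± 51.3 CPM in cerebellum and 20.4 ± 1.68 CPM in cortex (log2 change 5.75). The exception was Slc17a7, the vesicular glutamate transporter VGLUT1, which granule cells share with cortical projection neurons. Slc17a7 had 523, 507, 505 and 509 CPM in the cerebellum libraries, against 1273, 1171, 1260 and 1183 CPM in the cortex libraries, and fell in cerebellum with a log2 change of -1.26, SE 0.040. The least of the called rises were those of Gabrd, the GABA-A receptor δ subunit of granule cells (136 CPM in cerebellum and 49.3 CPM in cortex, log2 change 1.47), and Cadps2, a secretion factor (log2 change 1.80).

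Purkinje cell genes showed the same split of 19 called higher and 1 lower of 20 tested, with a median log2 change of 4.40. Their sum was 9715 ± 174 CPM in cerebellum and 1230 ± 20.5 CPM in cortex. The largest part of it was Itpr1, the inositol trisphosphate receptor that releases stored calcium, at 3923 ± 54.5 CPM in cerebellum and 762 ± 17.7 CPM in cortex (log2 change 2.36). Ppp1r17, a phosphatase inhibitor acted on by cyclic GMP-dependent kinase, had 256 ± 7.44 CPM in cerebellum and 0.381 ± 0.174 CPM in cortex (log2 change 9.34). Lhx1, a LIM homeobox factor, had 74.0 ± 3.97 CPM in cerebellum and 0.138 ± 0.115 CPM in cortex (log2 change 8.92), and Skor2, a transcriptional corepressor of Purkinje cells, had 9.70 CPM in cerebellum and no read in cortex. Foxp2, a forkhead factor of Purkinje cells that is also made in deep cortical layers, was the member that fell. It had 17.7, 15.1, 14.1 and 13.9 CPM in the cerebellum libraries, against 32.3, 48.2, 28.1 and 37.1 CPM in the cortex libraries. The groups did not overlap, and the change sat near the threshold (log2 change -1.27, SE 0.12, adjusted p = 0.029, edgeR 2-fold test). Without cortex replicate 2, its highest, the adjusted p was 0.265, and without both cortex libraries richest in striatal genes, replicates 2 and 4, it was 0.970.

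The rarer cerebellar cell types gave a more divided picture. Of 11 tested genes of cerebellar interneurons and unipolar brush cells (12 listed), 5 were called higher and 3 lower. Slc6a5, the neuronal glycine transporter, had 46.4 ± 1.87 CPM in cerebellum and 0.141 ± 0.118 CPM in cortex (log2 change 8.25), Tfap2b, a factor of GABAergic precursors, 78.9 ± 3.84 CPM in cerebellum and 1.40 ± 0.476 CPM in cortex (log2 change 5.81), and Eomes, which marks unipolar brush cells, 22.4 ± 4.27 CPM in cerebellum and 0.424 ± 0.415 CPM in cortex (log2 change 5.70). The 3 that fell, Grm2, Sorcs3 and Nxph1, had log2 changes of -1.76, -1.21 and -1.16. All 3 also had cortex levels of 38.2 CPM or more, and Nxph1 lay so near the threshold that leaving out cerebellum replicate 1, 2 or 4 or cortex replicate 3 or 4 ended its call (adjusted p = 0.056 to 0.085, edgeR). Of 9 Bergmann glia genes tested, 7 were called higher and 1 lower, with a median log2 change of 1.53. A2m, a protease inhibitor, had 102 ± 7.11 CPM in cerebellum and 3.22 ± 0.951 CPM in cortex (log2 change 4.99) and Gdf10, a growth factor of the BMP family, 148 ± 12.5 CPM in cerebellum and 6.91 ± 0.705 CPM in cortex (log2 change 4.42). The member that fell was Npy, neuropeptide Y, which cortical interneurons also release (6.51 CPM in cerebellum and 59.5 CPM in cortex, log2 change -3.18). Fabp7, a fatty acid binding protein of radial glia, had 36 CPM in cerebellum and 15.8 CPM in cortex and did not pass the 2-fold test, though it did without cerebellum replicate 1 (adjusted p = 0.033, edgeR).

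**Figure D2:**
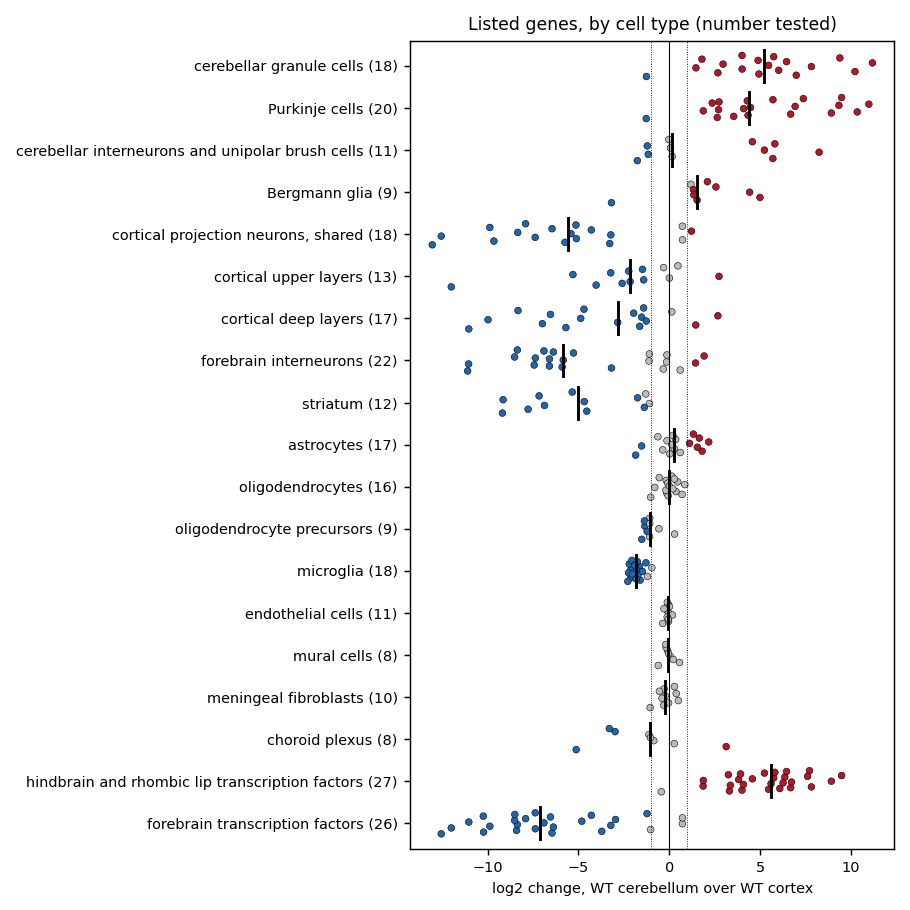
log2 change of every tested gene of 19 lists of cell type genes and transcription factors, cerebellum over cortex; red points passed the 2-fold test as higher in cerebellum, blue points as lower, grey points did not pass, black bars are medians, dotted lines mark 2-fold, and numbers in brackets are genes tested. Neuronal lists spread over many log2 units to either side, while the 18 microglia genes lie in a narrow band below 0 and oligodendrocyte, endothelial and mural genes lie around 0.

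Genes of cortical projection neurons fell almost throughout. Of 18 tested genes shared by the layers, 15 were called lower and 1 higher, with a median log2 change of -5.57, and their sum was 1167 ± 19.3 CPM in cerebellum and 8754 ± 340 CPM in cortex. Camk2a, the α subunit of calcium/calmodulin-dependent kinase II, had 101 ± 2.82 CPM in cerebellum and 3540 ± 184 CPM in cortex (log2 change -5.14), and Tbr1, a T-box factor of deep layers, 0.757 ± 0.253 CPM in cerebellum and 183 ± 15.7 CPM in cortex (log2 change -7.91). Emx1, the homeobox factor used to mark cortical excitatory neurons, had no read in cerebellum and 14.7, 13.8, 11.3 and 10.8 CPM in cortex, at least 191-fold lower. Nptx1, a secreted pentraxin that clusters AMPA receptors, was the member that rose. It had 767, 795, 744 and 799 CPM in the cerebellum libraries, against 343, 337, 347 and 304 CPM in the cortex libraries (log2 change 1.22, SE 0.044). Neurod2 and Bhlhe22, factors of cortical excitatory neurons that granule cells also make, had log2 changes of 0.72 and 0.73 and did not pass the 2-fold test.

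Markers of cortical layers followed in smaller steps. Of 13 upper-layer genes 9 were called lower and 1 higher, with a median log2 change of -2.15. Their sum was 1435 ± 25.2 CPM in cerebellum and 1498 ± 61.9 CPM in cortex. Of 17 deep-layer genes 14 were called lower and 2 higher, with a median of -2.84. Rasgrf2, a Ras exchange factor of upper layers, had 6.07 ± 0.893 CPM in cerebellum and 241 ± 22.3 CPM in cortex (log2 change -5.30), and Lmo4, a LIM-only protein, 24.5 ± 1.41 CPM in cerebellum and 228 ± 5.84 CPM in cortex (log2 change -3.22). In the deep layers Crym, a thyroid hormone binding protein, was at 1 read in cerebellum and 31.2, 36.5, 34.1 and 41.1 CPM in cortex. Ntsr1, the neurotensin receptor of corticothalamic cells, had 0.025 CPM in cerebellum and 11.4 CPM in cortex, and Hs3st4, a heparan sulfate enzyme, 0.588 CPM in cerebellum and 77.0 CPM in cortex. The layer genes that rose were Calb1, Etv1 and Nxph4. Calb1, a calcium buffer of Purkinje cells, had 1026 ± 33.5 CPM in cerebellum and 154 ± 6.80 CPM in cortex (log2 change 2.74). Etv1, an ETS factor of granule cells, had 350 ± 17.0 CPM in cerebellum and 54.8 ± 10.7 CPM in cortex (log2 change 2.67). Nxph4 rose with a log2 change of 1.46. Its call ended under DESeq2 (adjusted p = 0.093, DESeq2) and without the 2 cortex libraries richest in choroid plexus genes (adjusted p = 0.060, edgeR). Cux1 and Pcp4 had log2 changes of 0.48 and 0.14 and were not called.

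Forebrain interneuron genes were lower for the most part. Of 22 tested, 14 were called lower and 2 higher, with a median log2 change of -5.86. The sum of the list went the other way, at 2055 ± 58.0 CPM in cerebellum and 1555 ± 66.3 CPM in cortex. Sst, somatostatin, a peptide of cortical interneurons, had 0.60, 0.473, 0.637 and 0.819 CPM in the cerebellum libraries, against 118, 114, 106 and 112 CPM in the cortex libraries. All cerebellum values lay under 1 CPM (log2 change -7.43, SE 0.11). The homeobox genes Dlx2 and Dlx5 had no read in cerebellum and were at least 66.8-fold and 74.2-fold lower. Gad1 and Gad2, the enzymes that make GABA, had 497 CPM in cerebellum and 327 CPM in cortex and 242 CPM in cerebellum and 265 CPM in cortex, and neither passed the 2-fold test. The genes that rose were Reln, reelin, a secreted guidance protein made by granule cells (467 CPM in cerebellum and 124 CPM in cortex, log2 change 1.92), and Cnr1, the cannabinoid receptor CB1 (720 CPM in cerebellum and 264 CPM in cortex, log2 change 1.45).

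Striatal genes were in all cortex libraries, unevenly. The summed list was 326 ± 33.2 CPM in cerebellum and 1249 ± 462 CPM in cortex, lowest in cortex replicate 1 (657 CPM) and highest in replicates 2 and 4 (1716 and 1491 CPM). Of 12 tested members, 10 were called lower in cerebellum. Drd1a, the D1 dopamine receptor, had 0.500, 0.0946, 0.478 and 0.164 CPM in the cerebellum libraries, against 24.9, 62.9, 39.5 and 57.5 CPM in the cortex libraries (log2 change -7.16, SE 0.36). Penk, proenkephalin, had 84.0, 71.9, 82.9 and 78.5 CPM in the cerebellum libraries, against 79.8, 235, 151 and 211 CPM in the cortex libraries. Its groups overlapped, and it did not pass the 2-fold test, though it did without cortex replicate 1, its lowest (adjusted p = 0.001, edgeR). Without replicates 2 and 4, 8 of the 12 genes were called. The part of striatal tissue in other genes that were higher in cortex was not tested. Chat, the acetylcholine-making enzyme of striatal interneurons and brainstem motor neurons, had no read in cerebellum and 1.47, 3.10, 1.73 and 3.20 CPM in cortex, at least 35.8-fold lower.

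Transcription factors listed because they are known from hindbrain or forebrain divided the regions almost completely. Other transcription factors were not examined as a class. Of 36 listed factors of hindbrain and rhombic lip, the germinal zone of granule cells, 27 were tested, and 26 were called higher with none lower and a median log2 change of 5.60. Their sum was 3450 ± 186 CPM in cerebellum and 236 ± 12.7 CPM in cortex. En2, engrailed 2, had 127 ± 6.06 CPM in cerebellum and 0.592 ± 0.481 CPM in cortex (log2 change 7.72). Barhl1, a homeobox factor of granule cells, had 11.0 ± 1.26 CPM in cerebellum and 0.0347 ± 0.0695 CPM in cortex (log2 change 7.82). Lhx9, a factor of excitatory neurons of the deep nuclei, was the member not called (0.900 CPM in cerebellum and 1.26 CPM in cortex). The factors that act in early progenitors, Atoh1 and Ptf1a, had no read in any of the 8 libraries. Of 26 forebrain factors, all tested, 23 were called lower and none higher, with a median log2 change of -7.13, or -6.41 with genes at 0 set to their limit. By the test of no change 24 of them were lower and 2 higher. Egr3, an activity-regulated factor on this list, had 0, 0.284, 0.159 and 0 CPM in the cerebellum libraries, against 49.5, 33.7, 53.1 and 42.9 CPM in the cortex libraries (log2 change -8.50, SE 0.27). Nr2f2, COUP-TFII, did not pass the 2-fold test (21.4 CPM in cerebellum and 43.4 CPM in cortex).

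No Hox gene could be tested. Hox genes pattern the hindbrain and spinal cord behind the cerebellum. Of 21 matched in the files, 9 had no read in the 8 libraries, and the sum of all 21 was 0.368 ± 0.233 CPM in cerebellum and 0.173 ± 0.0626 CPM in cortex. Genes of deep nuclei and brainstem were thin as well, with 6 of 16 tested. Nefh, the heavy neurofilament, had 145 CPM in cerebellum and 58.1 CPM in cortex (log2 change 1.31), and Spp1, osteopontin, 24.1 CPM in cerebellum and 10.2 CPM in cortex (log2 change 1.24), whose call ended without cerebellum replicate 2 or 3 or cortex replicate 1 or 2 (adjusted p = 0.059 to 0.208, edgeR). Slc17a6, the vesicular glutamate transporter VGLUT2, had 25.6 CPM in cerebellum and 46.0 CPM in cortex and was not called. Of 5 tested hippocampal genes 2 were called higher (Tdo2 and Prox1, which granule cells of the cerebellum also make) and 3 lower. Of 5 tested thalamic genes 2, Prkcd and Rora, were called higher and none lower. Rora, the orphan nuclear receptor that Purkinje cells need, had 523 CPM in cerebellum and 143 CPM in cortex (log2 change 1.87).

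Microglia genes were lower in cerebellum without exception. All 18 tested passed the test of no change as lower, and 16 were called by the 2-fold test, with a median log2 change of -1.81 and a range from -2.28 to -0.96. The sum of the list was 171, 160, 179 and 165 CPM in the cerebellum libraries, against 514, 555, 536 and 533 CPM in the cortex libraries. Cx3cr1, the fractalkine receptor of microglia, had 13.1, 13.2, 16.1 and 12.9 CPM in the cerebellum libraries, against 57.8, 64.6, 60.3 and 57.3 CPM in the cortex libraries (log2 change -2.11, SE 0.078, adjusted p = 1.4e-12, edgeR 2-fold test). Tmem119, a surface protein of resident microglia, fell with a log2 change of -2.20, Trem2, a lipid receptor, with -2.24, and Aif1, which encodes IBA1, with -2.28. The members that were not called, Ctss and Cd68, had log2 changes of -0.96 and -1.20.

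Oligodendrocyte genes went both ways by less than the 2-fold test asks. Of 16 tested none was called, 7 passed the test of no change as higher and 6 as lower, and the median log2 change was -0.03. By the test of no change 37.3% of all tested genes were higher and 37.4% lower, so this split was near that of genes in general. Mbp, myelin basic protein, had 2699 ± 133 CPM in cerebellum and 3032 ± 176 CPM in cortex. Precursors of these cells differed: of 9 genes 4 were called lower and none higher, with a median of -1.08. Pdgfra, the growth factor receptor of precursors, had 29.1 ± 1.91 CPM in cerebellum and 74.0 ± 3.15 CPM in cortex (log2 change -1.34), and Gpr17, a receptor of differentiating precursors, 43.0 ± 1.47 CPM in cerebellum and 111 ± 3.49 CPM in cortex (log2 change -1.37).

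Astrocyte genes moved both ways within the list. Of 17 tested, 6 were called higher and 2 lower, with a median of 0.27. Aqp4, the water channel of astrocyte endfeet, had 683, 627, 754 and 688 CPM in the cerebellum libraries, against 198, 198, 198 and 191 CPM in the cortex libraries (log2 change 1.81, SE 0.049). Agt, angiotensinogen, rose with a log2 change of 2.17, and Slc1a3, the glutamate transporter GLAST of Bergmann glia, had 1608 ± 47.5 CPM in cerebellum and 639 ± 21.6 CPM in cortex (log2 change 1.33). Slc1a2, the glutamate transporter GLT-1 of forebrain astrocytes, fell, with 1371, 1435, 1393 and 1397 CPM in the cerebellum libraries, against 5183, 4993, 5139 and 4848 CPM in the cortex libraries (log2 change -1.85, SE 0.041). Slc1a6, the transporter EAAT4 of Purkinje cells, was higher at 122 ± 8.91 CPM in cerebellum and 6.01 ± 0.564 CPM in cortex (log2 change 4.33). Gfap, the glial filament, and Gja1, connexin 43, had log2 changes of -0.36 and 0.35 and were not called.

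Genes of vessels, meninges and blood gave no call. None of 11 endothelial, 8 mural, 10 meningeal and 6 erythrocyte genes was called, with medians of -0.05, -0.07, -0.25 and 0.29. Flt1, a VEGF receptor of endothelium, had 108 ± 4.33 CPM in cerebellum and 111 ± 4.43 CPM in cortex, and Rgs5, a pericyte gene, 213 ± 11.7 CPM in cerebellum and 205 ± 19.5 CPM in cortex. Choroid plexus genes were a matter of single libraries. Ttr, transthyretin, the main product of the choroid plexus, had 2.70, 8.51, 5.10 and 2.87 CPM in the cerebellum libraries, against 50, 3.38, 292 and 324 CPM in the cortex libraries. Cortex replicate 2 lay within the cerebellum range, so the groups overlapped although the 2-fold test called the gene. Of 8 tested choroid plexus genes 3 (Ttr, Kl and Prlr) were called lower and 1 higher. The one that was higher was Otx2, a homeobox factor also made in hindbrain neurons, with 13.3, 13.2, 15.3 and 13.5 CPM in the cerebellum libraries, against 0.267, 0.141, 2.60 and 3.34 CPM in the cortex libraries. Without cortex replicates 3 and 4, the libraries richest in these genes, 1 was called lower and 3 higher, and Kl and Prlr were no longer called (adjusted p = 0.124 and 0.090, edgeR). Ttr was still called then, with a log2 change of -2.49, where cortex replicate 1 had 375 Ttr reads and replicate 2 had 24, and Otx2 had a log2 change of 5.99.

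**Figure D3:**
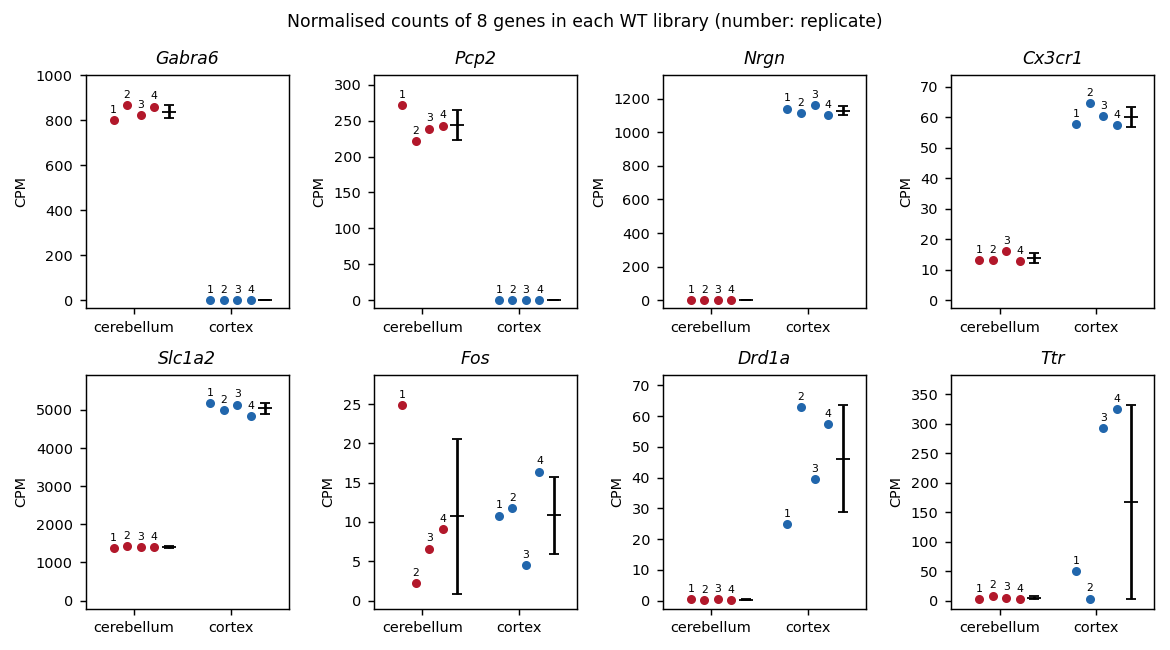
Level in CPM of 8 genes in each of the 4 WT cerebellum (red) and 4 WT cortex (blue) libraries, numbered by replicate, with the mean and SD as black marks; axes start near 0 and differ between panels. Gabra6, Pcp2, Nrgn, Cx3cr1 and Slc1a2 vary little within a region, Fos overlaps between regions, and the cortex values of Drd1a and Ttr differ several-fold between replicates.

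Ionotropic glutamate receptors differed by subunit more than in sum. Their summed level was 3699 ± 58.3 CPM in cerebellum and 3339 ± 60.5 CPM in cortex. Of 17 tested genes 3 were called higher and 5 lower. Grid1, a receptor of the δ group, had 28.7 ± 1.41 CPM in cerebellum and 73.3 ± 4.09 CPM in cortex (log2 change -1.35). Among NMDA receptor subunits, Grin2c, which mature granule cells use, had 371, 401, 395 and 382 CPM in the cerebellum libraries, against 48.7, 49.6, 52.8 and 47.9 CPM in the cortex libraries (log2 change 2.96, SE 0.048). Grin2b had 5.60, 5.86, 6.69 and 7.21 CPM in the cerebellum libraries, against 177, 144, 205 and 196 CPM in the cortex libraries (log2 change -4.82, SE 0.11), and Grin2a fell with a log2 change of -1.88. The obligatory subunit Grin1 had 365 CPM in cerebellum and 466 CPM in cortex and was not called. Per length of annotated exon, Grin2c was 96.6% ± 0.191 in cerebellum and 45.5% ± 3.02 in cortex of the summed CPM per kb of the GluN2 subunits, and Grin2b was 0.321% ± 0.0376 in cerebellum and 33.3% ± 2.81 in cortex. In CPM, Grin2b lay above Grin2c in every cortex library. The annotated exons total 24842 bases for Grin2b and 5037 for Grin2c, so the order of subunits within a region rests on these lengths.

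AMPA receptor subunits shifted toward Gria4. It had 698 ± 11.2 CPM in cerebellum and 170 ± 9.73 CPM in cortex (log2 change 2.04), while Gria3 fell with a log2 change of -1.15. As shares of the family per kb, Gria4 was 40.1% ± 0.728 in cerebellum and 13.3% ± 0.664 in cortex and Gria2, the subunit that limits calcium entry, was 12% ± 0.391 in cerebellum and 27.3% ± 0.559 in cortex. Gria1 was 40.9% ± 1.23 in cerebellum and 38.5% ± 1.42 in cortex. The order within a region rests here too on annotated exon length, 15548 bases for Gria2, 6043 for Gria1 and 6305 for Gria4. Among kainate receptor subunits Grik5 fell with a log2 change of -1.68, and Grik1 and Grik2 had 0.89 and 0.68 without a call.

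Every tested metabotropic glutamate receptor or Homer scaffold was called, 3 higher and 7 lower. Grm5, a receptor of forebrain dendrites, had 11.4, 13.5, 14.4 and 12.4 CPM in the cerebellum libraries, against 295, 322, 325 and 330 CPM in the cortex libraries (log2 change -4.61, SE 0.063). Grm4, a presynaptic receptor of granule cells, had 657 ± 44.3 CPM in cerebellum and 33.3 ± 1.27 CPM in cortex (log2 change 4.30). Of the scaffolds that tie these receptors to stored calcium, Homer3 had 204 ± 6.80 CPM in cerebellum and 6.42 ± 1.39 CPM in cortex (log2 change 4.99), and Homer1 had 46.7 ± 3.77 CPM in cerebellum and 260 ± 36.4 CPM in cortex (log2 change -2.47). Homer3 was 89.6% ± 0.745 in cerebellum and 5.98% ± 1.96 in cortex of the Homer family per kb.

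GABA and glycine receptor genes counted 2 higher and 7 lower of 19 tested. Beside Gabra6 and Gabrd, the rises, the α subunits fell in the order Gabra5 (1.39 CPM in cerebellum and 63.2 CPM in cortex, log2 change -5.49), Gabra3 (13.6 CPM in cerebellum and 190 CPM in cortex, log2 change -3.79) and Gabra4 (34.4 CPM in cerebellum and 163 CPM in cortex, log2 change -2.24). Gabrg3 fell with a log2 change of -4.09. The glycine receptor genes Glra2 and Glra3 fell with log2 changes of -1.98 and -4.26, and Glrb, their shared β subunit, was not called (251 CPM in cerebellum and 268 CPM in cortex). The metabotropic GABA receptor genes Gabbr1 and Gabbr2 had log2 changes of -0.13 and -0.11 and were not called.

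**Figure D4:**
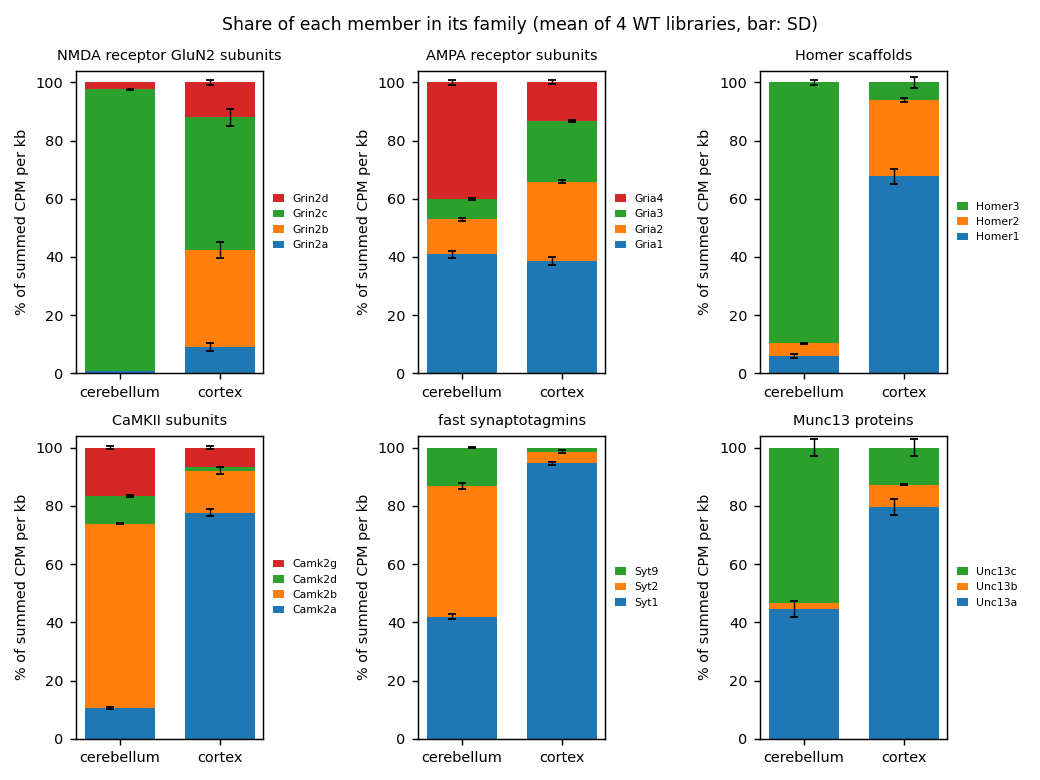
Share of each member in the summed CPM per kb of annotated exon of 6 transcript families, as the mean of 4 WT cerebellum libraries (left bars) and 4 WT cortex libraries (right bars), with SD as black bars for shares above 4%. Grin2c, Homer3 and Camk2b fill most of their cerebellum bars, and Camk2a, Homer1 and Syt1 fill most of their cortex bars.

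Voltage-gated potassium channels fell more often than they rose, with 19 of 35 called lower, 5 higher and a median log2 change of -1.78. Yet the summed level was 4899 ± 88.9 CPM in cerebellum and 4330 ± 66.6 CPM in cortex. Kcnc1, the fast Kv3.1 channel, had 737 ± 23.3 CPM in cerebellum and 204 ± 11.6 CPM in cortex (log2 change 1.85). Its relative Kcnc2 had 5.79 ± 1.20 CPM in cerebellum and 144 ± 10.9 CPM in cortex (log2 change -4.62). Kcng4, a modifier subunit, rose with a log2 change of 4.09 and Kcnd2, the A-type channel Kv4.2, with 1.48. The falls were led by modifier subunits that form no channel alone: Kcnv1 had 0, 0, 0.159 and 0.328 CPM in the cerebellum libraries, against 152, 140, 158 and 144 CPM in the cortex libraries (log2 change -9.99, SE 0.16), Kcng1 fell with a log2 change of -7.04 and Kcnf1 with -6.75. Among M-current channels Kcnq5 and Kcnq3 fell with log2 changes of -6.26 and -2.87.

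Sodium, calcium and HCN channel genes gave 3 higher and 9 lower of 30, with a median of -0.04. Cacna1a, the P/Q-type channel of Purkinje cells, had 698 ± 15 CPM in cerebellum and 243 ± 28.1 CPM in cortex (log2 change 1.52), Cacna1g, a T-type channel, 299 ± 7.39 CPM in cerebellum and 95.1 ± 9.27 CPM in cortex (log2 change 1.65), and their accessory subunit Cacna2d2 267 ± 14.3 CPM in cerebellum and 62.7 ± 7.37 CPM in cortex (log2 change 2.09). Cacna1h, another T-type channel, fell with a log2 change of -3.58. The sodium channel genes Scn3a and Scn3b fell with log2 changes of -4.52 and -4.67, while Scn1a, Scn2a1 and Scn8a, which carry most axonal sodium current, had 0.05, 0.23 and -0.08 without a call. Cacng3, a subunit that escorts AMPA receptors, fell with a log2 change of -4.09, and Cacng2, stargazin, named for a cerebellar mutant mouse, had 256 CPM in cerebellum and 131 CPM in cortex without a call.

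Genes of vesicle release were called on both sides, some of them as pairs of isoforms that moved in opposite directions. Of 43 genes 5 were called higher, 11 lower and 27 not, with a median of -0.26. Over all tested genes 6.88% were called higher and 12.2% lower. Syt2, a fast calcium sensor of hindbrain synapses, had 657 ± 26.7 CPM in cerebellum and 83.4 ± 8.92 CPM in cortex (log2 change 2.98), and Syt1, its forebrain counterpart, 668 ± 3.99 CPM in cerebellum and 2142 ± 140 CPM in cortex (log2 change -1.68). Among Syt1, Syt2 and Syt9, the share of Syt1 per kb was 41.9% ± 0.83 in cerebellum and 94.6% ± 0.470 in cortex. Unc13c, a Munc13 priming factor of granule cells, rose with a log2 change of 2.19, and was 53.3% ± 2.96 in cerebellum and 12.7% ± 2.90 in cortex of the Munc13 genes per kb. Stx1a, a syntaxin, had 2.60, 2.27, 2.63 and 2.05 CPM in the cerebellum libraries, against 274, 241, 262 and 247 CPM in the cortex libraries (log2 change -6.74, SE 0.081). Doc2b rose and Doc2a fell, with log2 changes of 1.62 and -6.85. Snap25, the SNARE protein of the plasma membrane, had 3251 ± 46.9 CPM in cerebellum and 2986 ± 112 CPM in cortex.

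Synaptic organisers, which bridge the cleft, gave 4 higher and 15 lower of 41. The cerebellins divided cleanly: Cbln1 and Cbln3 were higher, and Cbln2 had 0.100, 0.378, 0 and 0.246 CPM in the cerebellum libraries, against 38.5, 34.6, 43.9 and 39.3 CPM in the cortex libraries (log2 change -7.68, SE 0.22). Cbln4 fell as well (0.889 CPM in cerebellum and 17.6 CPM in cortex, log2 change -4.29). Nptx2 fell with a log2 change of -5.39, the reverse of Nptx1. The neurexins Nrxn2 and Nrxn3, presynaptic organisers, had log2 changes of 0.10 and 0.72 and neither was called. The postsynaptic leucine-rich proteins Lrrtm1 and Lrrtm4 fell with log2 changes of -3.24 and -3.07. Of 15 classical cadherins 3 were called higher and 6 lower. Cdh15, a cadherin of granule cells, had 47.8 ± 3.65 CPM in cerebellum and 1.05 ± 0.354 CPM in cortex (log2 change 5.50), and Cdh9 had 0.748 ± 0.0401 CPM in cerebellum and 26.5 ± 3.40 CPM in cortex (log2 change -5.12).

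Calcium signalling genes were called on both sides, 13 higher and 11 lower of 41. Among the members that rose, Calb2, calretinin of granule cells, had 337 ± 8.39 CPM in cerebellum and 11.3 ± 0.450 CPM in cortex (log2 change 4.89), and Pvalb, parvalbumin, 396 ± 15.7 CPM in cerebellum and 33.8 ± 2.66 CPM in cortex (log2 change 3.55). Among the members that fell, Camkv, a kinase-like vesicle protein, had 2.07 ± 0.685 CPM in cerebellum and 368 ± 19.0 CPM in cortex (log2 change -7.48), and Hpcal4, a neuronal calcium sensor, 34.7 ± 1.58 CPM in cerebellum and 1057 ± 31.0 CPM in cortex (log2 change -4.93). In the CaMKII family, Camk2a was 10.5% ± 0.396 in cerebellum and 77.6% ± 1.17 in cortex of the CPM per kb, and Camk2b was 63.4% ± 0.281 in cerebellum and 14.5% ± 1.07 in cortex. Camk2b itself had 748 CPM in cerebellum and 806 CPM in cortex and was not called. Ptk2b, a calcium-activated tyrosine kinase, had 3.27 ± 0.547 CPM in cerebellum and 453 ± 4.52 CPM in cortex (log2 change -7.12).

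**Figure D5:**
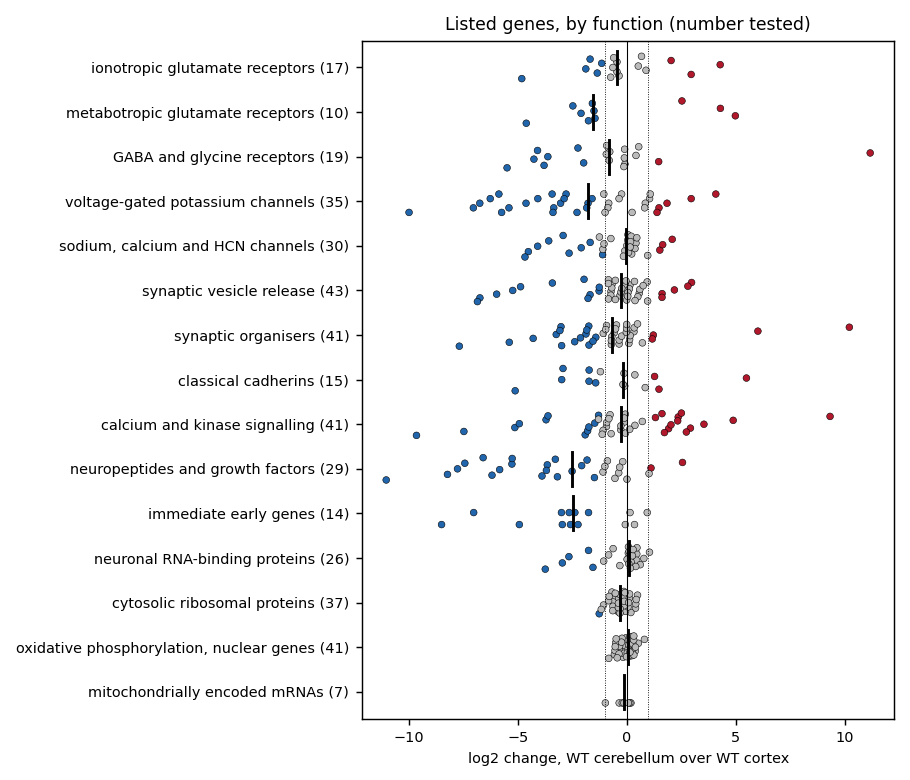
log2 change of every tested gene of 15 lists of functions, cerebellum over cortex; colours, bars and dotted lines as in the plot of cell type lists. Peptides, immediate early genes and potassium channels lie mostly below 0, calcium signalling genes are called on both sides, and genes of oxidative phosphorylation lie within 2-fold.

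Neuropeptides and growth factors were mostly cortical, with 18 of 29 tested called lower, 2 higher and a median log2 change of -2.51. Cartpt, the CART peptide, had no read in cerebellum and was at least 61.0-fold lower, and Pdyn, prodynorphin, also on the striatal list, fell with a log2 change of -7.77. Ntf3, neurotrophin 3, rose (6.67 CPM in cerebellum and 1.11 CPM in cortex, log2 change 2.56), as did Fgf1 (164 CPM in cerebellum and 75.6 CPM in cortex, log2 change 1.12). The call on Fgf1 ended without cerebellum replicate 4 or cortex replicate 1, 3 or 4 (adjusted p = 0.056 to 0.180, edgeR). Igf2, a growth factor of meninges and vessels, had 130 CPM in cerebellum and 129 CPM in cortex and was not called.

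Immediate early genes, which neurons switch on with activity, gave 10 of 14 called lower and none higher, with a median of -2.48. Junb had 2.85 ± 1.39 CPM in cerebellum and 22.3 ± 5.90 CPM in cortex (log2 change -3.0), and Fosb had 0.233 ± 0.168 CPM in cerebellum and 7.75 ± 1.91 CPM in cortex (log2 change -4.93). Fos was the exception in kind. It had 24.9, 2.18, 6.61 and 9.09 CPM in the cerebellum libraries, against 10.8, 11.8, 4.47 and 16.4 CPM in the cortex libraries. The groups overlapped, and cerebellum replicate 1 held the highest of all 8 values (log2 change -0.06, SE 0.41). Ier2, Dusp1 and Btg2 were not called either, with log2 changes of 0.94, 0.36 and 0.15. The handling of each animal before dissection is not given in the labels, and its part in these genes was not tested.

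Genes that every cell uses were rarely called. None of 41 nuclear genes of oxidative phosphorylation was called, with a median of 0.07, and their sum was 4946 ± 133 CPM in cerebellum and 4606 ± 100 CPM in cortex. None of the 7 mitochondrially encoded mRNAs tested was called, and all 13 listed ones together, tested or not, held 62307 ± 6276 CPM in cerebellum and 64302 ± 3571 CPM in cortex. Of 37 tested ribosomal protein genes 1, Rpl37, was called lower (9.84 CPM in cerebellum and 23.4 CPM in cortex, log2 change -1.26, adjusted p = 0.014, edgeR 2-fold test), and the median was -0.30. Without cerebellum replicate 3 or 4 Rpl37 was not called (adjusted p = 0.065 and 0.058, edgeR). By the test of no change 20 of the 37 were lower and 4 higher, where 37.4% of all tested genes were lower and 37.3% higher. The sum of all 46 listed was 1214 ± 19.1 CPM in cerebellum and 1513 ± 58.0 CPM in cortex. Counts of ribosomal protein genes are uncertain, since their many pseudogenes can share reads. Of 26 neuronal RNA-binding proteins 5 were called lower and none higher, where 12.2% of all tested genes were called lower and 6.88% higher. Khdrbs3, which regulates neurexin splicing, had 10.8 ± 0.972 CPM in cerebellum and 146 ± 8.52 CPM in cortex (log2 change -3.74), and Celf5 and Celf6 fell with log2 changes of -2.65 and -2.95. Rbfox1 and Rbfox3, splicing factors of mature neurons, were not called (354 CPM in cerebellum and 440 CPM in cortex for Rbfox1, and 440 CPM in cerebellum and 320 CPM in cortex for Rbfox3).

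Cdr1as and Cyrano, noncoding RNAs that the series links with miR-7, had higher gene-level counts in cerebellum. Cdr1as is known as a circular RNA dense in miR-7 sites, but the count here is of all reads given to that gene in polyadenylated RNA, with no back-splice junction measured, so circular and linear transcripts cannot be told apart. The gene had 987, 1168, 941 and 1099 CPM in the cerebellum libraries, against 517, 359, 385 and 515 CPM in the cortex libraries. The groups did not overlap (log2 change 1.24, SE 0.088, adjusted p = 0.007, edgeR 2-fold test). DESeq2's test of the same size of change did not call it (adjusted p = 0.681). The Cyrano transcript, named 1700020I14Rik in the files, which directs the decay of miR-7, had 1579, 1630, 1670 and 1699 CPM in the cerebellum libraries, against 919, 841, 874 and 875 CPM in the cortex libraries. Its groups did not overlap, and its log2 change of 0.91, SE 0.040 passed the test of no change and not the 2-fold test. Hnrnpk, a host gene of miR-7, had a log2 change of 0.63 and was not called. These libraries do not measure mature microRNAs, and Mir7-1, the precursor, had 0.284 CPM at most in any library. Among other noncoding RNAs, Miat had 24.8 ± 4.95 CPM in cerebellum and 601 ± 73.1 CPM in cortex (log2 change -4.61). Gm2694, the gene next to Cbln1 on chromosome 8, had 163 ± 10.6 CPM in cerebellum and 3.10 ± 1.17 CPM in cortex (log2 change 5.71). Malat1 and Meg3, abundant nuclear RNAs, had log2 changes of 0.11 and -0.28 without a call.

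Per kb of annotated exon, the most abundant transcripts were largely the same kinds in both regions. Leaving out mitochondrial genes, Sparcl1, a glial matrix protein, came to 689 CPM per kb in cerebellum and 586 CPM per kb in cortex, and Malat1 to 661 CPM per kb in cerebellum and 611 CPM per kb in cortex. Camk4, a nuclear calcium-dependent kinase of granule cells, and Car8 were among the top 15 of cerebellum, at 591 and 465 CPM per kb. In cortex Camk4 had 192 CPM per kb and Car8 3.82. Nrgn, Camk2n1 and Camk2a were among the top 15 of cortex. Nrgn had 0.981 CPM per kb in cerebellum and 777 in cortex, Camk2n1, a CaMKII inhibitor, 39.8 in cerebellum and 517 in cortex, and Camk2a 13.5 in cerebellum and 474 in cortex.

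Genes called in a direction lay next to each other more often than tested genes in general. Of 955 placed genes called higher, 253 (26.5%) had a gene called the same way as nearest tested neighbour on either side, against 1823 of 13886 (13.1%) of all placed tested genes. For genes called lower it was 562 of 1691 (33.2%), against 3131 of 13886 (22.5%). Neighbours can overlap or share a promoter, and no test was made of these shares. The called genes were longer, with a median span of 31.0 kb for those higher and 33.4 kb for those lower, against 25.6 kb for all. Long noncoding RNAs made up 6.60% of genes called higher and 5.26% of those called lower, against 3.76% of all tested.

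The same contrast in Mir7DKO mice shares no library with the WT contrast. There 9836 of 14431 genes (68.2%) passed the test of no change, and the 2-fold test called 2589 of 14431 genes (17.9%), 947 (6.56%) higher in cerebellum and 1642 (11.4%) lower. A total of 2325 genes were called in both genotypes in the same direction, 89.8% of the Mir7DKO calls and 87.0% of the WT calls. Gabra6 had 838, 861 and 892 CPM in the Mir7DKO cerebellum libraries, against 0, 0 and 0 CPM in the Mir7DKO cortex libraries. Nrgn had 1.44, 1.53 and 1.74 CPM in the Mir7DKO cerebellum libraries, against 1146, 1043 and 1054 CPM in the Mir7DKO cortex libraries. Both stood in Mir7DKO as they did in WT, without overlap of regions. Cdr1as had 1045, 999 and 1170 CPM in the Mir7DKO cerebellum libraries, against 477, 453 and 687 CPM in the Mir7DKO cortex libraries (log2 change 0.99), and Cx3cr1 had 17.9, 15.4 and 13.3 CPM in the Mir7DKO cerebellum libraries, against 61.9, 62.0 and 67.1 CPM in the Mir7DKO cortex libraries (log2 change -2.04).

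The regional difference itself differed between Mir7DKO and WT for 23 of 14886 genes (0.155%) by edgeR's quasi-likelihood test of the interaction. Of these, 22 had the higher cerebellum over cortex ratio in Mir7DKO, and 8 were on the choroid plexus list. The count ran from 1 to 48 when each library in turn was left out. It was 1 without Mir7DKO cortex replicate 2 or WT cortex replicate 4 and 48 without Mir7DKO cerebellum replicate 3, and DESeq2 called 12. At an unadjusted p under 0.05 there were 732 genes. Ttr had 569, 354 and 3.40 CPM in the Mir7DKO cerebellum libraries, against 3.11, 3.96 and 1.98 CPM in the Mir7DKO cortex libraries, with its high values in Mir7DKO cerebellum replicates 1 and 2, and, as given above, in WT cortex replicates 1, 3 and 4. Its interaction log2 was 11.79, SE 1.6 (adjusted p = 0.001, edgeR). F5, coagulation factor V, Kl, klotho, and Kcne2, a potassium channel subunit of choroid epithelium, had interaction log2 values of 5.65, 5.53 and 8.40. The genes called in opposite directions in Mir7DKO and WT were 3, Ttr, Kl and F5. The part of choroid plexus tissue in the other called genes was not tested.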

How the data were processed

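Per the labels' protocols, the libraries came from polyadenylated RNA and kept strand. The deposited tables hold whole-number read counts for each gene, made by the authors. According to the submitters' processing notes the tools were STAR 2.4, HTSeq 0.6.1p1 and DESeq2 1.10, and the notes list mm10 as well as GRCm38. Neither the strand setting nor the annotation release used for counting is given in the sources used here. The WT columns of the experiment 2 cerebellum and cortex tables were joined by gene ID, and 36639 of 38393 features were placed on GRCm38 through the GENCODE annotation. Testing was done in edgeR 4.0.16 under R 4.3.3. Low genes were removed by filterByExpr (minimum count 10) and libraries scaled by TMM, before the quasi-likelihood test and glmTreat against a log2 change of 1, with Benjamini-Hochberg adjustment and a threshold of 0.05. Groups were taken from the labels. The lists of genes and the comparison itself were chosen with earlier results of these data known. From each of 41 lists, up to 4 called genes in each direction and a few uncalled ones were named, with the 12 largest changes and the 5 smallest p of each direction. The CaMKII, synaptotagmin and Munc13 genes, and some other list members, were named after their values were seen. Limits for counts of 0 use the TMM-scaled library sizes, as the CPM do. CPM per kb divides by the total annotated exon length. P-values measure the spread between libraries, which may be technical. All replicate pairs differed beyond sampling noise. DESeq2 1.42.0, other scalings and filters, a replicate block and leaving out libraries were tried as alternatives. Some genes that were tested are not reported here.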

Additional observations from a re-analysis of the deposited data

Results flagged for a closer look

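Among 404 groups of 4 libraries, 1 for each named gene and region, 35 (8.66%) held a library whose gap to the nearest other exceeded Dixon's 95% value of 0.83 of the group's range. Chance alone gives about 1 in 20, and a group with 3 values at 0 is caught by any read in the fourth. The ratio was taken on CPM values rounded as printed here, so rounding can make ties and change which groups are flagged.

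Cerebellum replicate 1 was highest for Doc2b (127 CPM), Nrxn2 (436 CPM) and Ntsr1 (0.100 CPM). Cerebellum replicate 2 was highest for Gabrd (147 CPM) and Tbr1 (1.13 CPM) and lowest for Gabbr1 (802 CPM). Cerebellum replicate 3 was highest for Crym (0.0796 CPM), Cx3cr1 (16.1 CPM), Homer1 (52.2 CPM), Nxph1 (18.3 CPM) and Otx2 (15.3 CPM) and lowest for Car8 (1697 CPM) and Lrrtm1 (3.50 CPM). Cerebellum replicate 4 was highest for Glra2 (6.39 CPM) and Glra3 (0.655 CPM) and lowest for Cbln4 (0.655 CPM) and Gfap (110 CPM). Cortex replicate 1 was highest for Crtam (0.133 CPM), Fezf2 (36.5 CPM), Gria3 (430 CPM), Grin1 (515 CPM) and Miat (710 CPM) and lowest for Dlx6os1 (21.2 CPM) and Gria1 (450 CPM). Cortex replicate 2 was highest for Cbln3 (4.79 CPM), Cnpy1 (1.27 CPM), Fat2 (4.79 CPM) and Gabra6 (1.27 CPM) and lowest for Cbln4 (11.0 CPM) and Vip (24.6 CPM). Cortex replicate 3 was highest for Celf6 (19.5 CPM) and Mir7-1 (0.144 CPM). Cortex replicate 4 was highest for Barhl1 (0.139 CPM) and lowest for Aqp4 (191 CPM) and Flt1 (105 CPM).

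The cerebellum over cortex log2 change differed between Mir7DKO and WT for the following named genes, by the interaction test of edgeR. The difference, Mir7DKO minus WT, was F5 at 5.65 (adjusted p = 0.008), Kcne2 at 8.40 (adjusted p = 0.008), Kl at 5.53 (adjusted p = 0.008), Prlr at 4.42 (adjusted p = 0.025) and Ttr at 11.79 (adjusted p = 0.001), edgeR. Ttr, Kl, Prlr and Kcne2 are on the choroid plexus list, and the summed list in Mir7DKO was 717, 464 and 33.8 CPM in cerebellum, against 21, 22.4 and 21.1 CPM in cortex, while in WT it was 38.5 ± 3.26 CPM in cerebellum and 221 ± 205 CPM in cortex. The sum was high in Mir7DKO cerebellum replicates 1 and 2 and in WT cortex replicates 3 and 4, and its part in the 5 differences was not tested.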

How the results depend on the processing

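Over 17 alternatives, the count of genes past the test of no change ran from 8864 (only genes of at least 5 CPM on average) to 11894 (no filter on low counts), against 10455, and the count past the 2-fold test from 1921 to 3248, against 2672, under the same filters. Neither left 1.5 times the reported count. DESeq2 gave 9898 and 2265, library totals alone 10517 and 2648, and the replicate block, which takes same-numbered cerebellum and cortex libraries as pairs, 10394 and 2656. Same-numbered libraries deviated together with correlations of -0.029 to 0, within the range of differently numbered ones (-0.037 to 0.066), so the numbers are not shown to pair them. Leaving out each library gave 10190 to 10446 and 2659 to 2724 calls in all, and without the cortex libraries richest in choroid plexus or striatal genes, a choice made after seeing the data, the 2-fold test called 2608 and 2634. In Mir7DKO leaving out each library gave 2556 to 2648 calls. For the difference between Mir7DKO and WT, DESeq2 called 12 genes against 23, the replicate block 27, and leaving out a library gave 1 to 48. The cause was not tested. Of 198 named genes tested, none that was called changed sign, 12 lost their 2-fold call and 2 gained one under at least 1 alternative. DESeq2 ended the calls on Cdr1as, Otx2, Sorcs3, Nxph4, Foxp2, Fgf1, Spp1, Nxph1 and Rpl37. The median log2 change of all genes moved to 0.071 with library totals alone and to -0.034 with no filter. Depth limits genes without a read in a region to a lower bound on their fold change.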

Other observations

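For 5 genes, chosen after their values were seen, most of the few cortex reads sat in 1 library. Of cortex reads, replicate 2 held 9 of 10 for Gabra6, 9 of 11 for Cnpy1, which is known from fish as a regulator of FGF signalling, 34 of 45 for Cbln3, 34 of 58 for Fat2 and 4 of 5 for Pcp2. The same genes had 38026, 26173, 85711, 61725 and 11033 reads in the 4 cerebellum libraries. In Mir7DKO cortex Gabra6 had no read in any of 3 libraries. Among other granule and Purkinje cell genes, Ppp1r17 had 3, 4, 1 and 3 reads in cortex replicates 1 to 4. Mab21l1 had 14, 7, 13 and 19, and Barhl1 had 1 read, in replicate 4. The excess in replicate 2 was small next to the cerebellum reads of the 5 genes. Mab21l1 had its fewest cortex reads in replicate 2, and the reads of Ppp1r17 were spread over the 4 cortex libraries. Whether Ppp1r17, Mab21l1 and Barhl1 shared the excess was not tested. The source of these reads was not tested.

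A few called genes, chosen after their values were seen, are best known outside the brain. Nrk, a kinase best known from placenta, had 90.9, 94.9, 98.2 and 105 CPM in the cerebellum libraries, against 0.400, 0.141, 0.144 and 0.278 CPM in the cortex libraries, with no overlap of regions. Ryr1, the calcium release channel of skeletal muscle, which Purkinje cells also make, had 73.7 ± 4.06 CPM in cerebellum and 29.6 ± 5.82 CPM in cortex (log2 change 1.32).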
